A study of Homo sapiens with 8 samples.

Results

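The 4 human HOX clusters were described in the ATAC-seq peak lists of 8 samples from 2 lung cancer cell lines. The genes were 38 listed HOX genes: 10 in HOXA on chromosome 7, 10 in HOXB on chromosome 17, 9 in HOXC on chromosome 12 and 9 in HOXD on chromosome 2. They are 38 of 20037 protein-coding genes in the RefSeq table of GRCh38.p14. A window ran from 50 kb before the first listed gene of a cluster to 50 kb after the last. The windows were chr7:27050354-27250091 (HOXA), chr17:48478526-48778750 (HOXB), chr12:53888831-54106030 (HOXC) and chr2:176037487-176240907 (HOXD). Over the 8 lists, 264 peaks touched a window, and each was assigned to the nearest listed HOX gene.

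HOX genes encode homeodomain transcription factors that give cells their position along the body axis and along the limbs. Their order in a cluster follows their order of use: genes with low numbers lie at the 3′ end of a cluster and act towards the head, and genes with high numbers lie at the 5′ end and act towards the tail. Genes with the same number in different clusters are paralogues, descended from 1 ancestral gene. Silent HOX genes are held under Polycomb repression. Trithorax group proteins, among them the SWI/SNF ATPases, oppose it, and HOX genes are classic targets of both systems. HOXA and HOXB genes take part in lung branching, and adult and tumour cells keep patterns of HOX use that differ with the cells' origin.

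H1975 and HCC44 are established human non-small-cell lung cancer lines, both labelled wild type (WT) in genotype, lung in tissue and lung cancer in cell type. Each line was given DMSO, the solvent, or ACBI1 for 96 h, with 2 replicates in each of the 4 groups. ACBI1 is a degrader of the SWI/SNF ATPases SMARCA2 and SMARCA4 and of the subunit PBRM1, and its labelled dose is 1 mM. ATAC-seq uses a transposase to insert sequencing adapters into open chromatin, and a peak is a stretch where insertions exceed a background. Whether replicates were separate cultures is not given in the sources used here, so p-values measure only the spread between these samples, which may be technical.

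The lists held 41027 to 43525 peaks in H1975 with DMSO, 22133 to 27682 in H1975 with ACBI1, 49945 to 50347 in HCC44 with DMSO and 24862 to 26313 in HCC44 with ACBI1. No read number is given, so depth is unknown and a missing peak is not a measurement of closed chromatin. The number of listed peaks thus moved with the treatment, and its part in the HOX values below was not tested. Peaks within 1 kb of an end of the epithelial genes EPCAM, KRT8, KRT18 and KRT19 were listed in all 8 samples, and at CDH1 in 7. The mesenchymal genes VIM and FN1 and the fibroblast gene COL1A1 also had one in all 8 samples, PDGFRB had one in 7 and COL1A2 in 4. Of 4 blood genes and 2 endothelial genes, none had a peak in all 8 samples, and CD3E was the only one of the 6 with a peak in any.

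RefSeq gives promoter windows, from 250 bases before to 50 bases after a transcription start, for 20 of the 38 genes. These genes have 26 different windows. The 6 printed here run from a window with a peak in all 8 samples to a window with none, and each is shown because a result below turns on its gene. They are read 5′ to 3′ on the gene's strand in GRCh38.p14, with every CG dinucleotide in capitals.
HOXA3, chr7:27150901-27151200: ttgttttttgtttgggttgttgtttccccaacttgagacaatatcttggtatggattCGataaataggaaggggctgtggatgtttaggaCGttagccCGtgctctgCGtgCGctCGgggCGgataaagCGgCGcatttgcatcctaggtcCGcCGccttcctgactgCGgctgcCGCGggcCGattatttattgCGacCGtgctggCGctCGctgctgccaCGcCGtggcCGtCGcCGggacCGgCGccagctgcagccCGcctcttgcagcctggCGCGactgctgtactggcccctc
HOXD1, chr2:176188418-176188717: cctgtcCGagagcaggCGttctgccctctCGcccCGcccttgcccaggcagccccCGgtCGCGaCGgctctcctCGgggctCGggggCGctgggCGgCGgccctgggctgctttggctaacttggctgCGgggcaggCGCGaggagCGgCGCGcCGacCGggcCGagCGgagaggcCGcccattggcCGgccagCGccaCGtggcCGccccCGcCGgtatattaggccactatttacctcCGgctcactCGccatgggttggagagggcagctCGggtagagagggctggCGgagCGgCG
HOXA13, chr7:27200042-27200341: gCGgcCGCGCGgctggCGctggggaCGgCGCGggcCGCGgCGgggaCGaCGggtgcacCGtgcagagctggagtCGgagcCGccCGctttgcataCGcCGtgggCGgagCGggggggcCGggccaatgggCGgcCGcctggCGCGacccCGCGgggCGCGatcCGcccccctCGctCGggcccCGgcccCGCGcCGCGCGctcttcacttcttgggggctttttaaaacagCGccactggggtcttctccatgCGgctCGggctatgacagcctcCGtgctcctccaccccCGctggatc
HOXD4, chr2:176151300-176151599: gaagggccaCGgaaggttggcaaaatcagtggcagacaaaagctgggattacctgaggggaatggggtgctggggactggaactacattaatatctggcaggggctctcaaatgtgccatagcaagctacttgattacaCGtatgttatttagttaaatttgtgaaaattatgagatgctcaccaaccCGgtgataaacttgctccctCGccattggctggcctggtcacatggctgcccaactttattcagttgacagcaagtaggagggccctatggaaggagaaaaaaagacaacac
HOXC4, chr12:54016638-54016937: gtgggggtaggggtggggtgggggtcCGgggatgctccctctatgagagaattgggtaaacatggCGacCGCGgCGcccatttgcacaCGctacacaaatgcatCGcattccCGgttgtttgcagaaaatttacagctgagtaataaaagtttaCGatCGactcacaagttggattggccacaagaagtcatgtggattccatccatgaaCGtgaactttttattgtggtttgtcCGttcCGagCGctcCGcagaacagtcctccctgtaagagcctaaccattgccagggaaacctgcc
HOXD13, chr2:176092471-176092770: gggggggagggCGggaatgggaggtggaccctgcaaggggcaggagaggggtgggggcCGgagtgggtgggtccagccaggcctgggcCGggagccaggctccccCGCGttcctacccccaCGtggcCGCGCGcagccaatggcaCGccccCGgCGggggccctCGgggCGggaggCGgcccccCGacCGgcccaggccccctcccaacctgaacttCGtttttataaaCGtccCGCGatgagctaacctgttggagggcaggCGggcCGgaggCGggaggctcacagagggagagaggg
A peak overlapped the HOXA3 window in 8 samples, the HOXD1 window in 7, the HOXA13 window in 6, the HOXD4 window in 5 and the HOXC4 window, which HOXC5 shares, in 3. The HOXD13 window held no peak in any sample. The windows held 29 (HOXA3), 36 (HOXD1), 44 (HOXA13), 4 (HOXD4), 15 (HOXC4) and 24 (HOXD13) CG dinucleotides. CG content did not order these windows by their peaks: the HOXD4 window with 4 had a peak in 5 samples and the HOXD13 window with 24 in 0.

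A promoter peak was listed in both DMSO samples at 3 of these 20 genes in H1975 (15.0%), against 60.6% of the protein-coding genes in the table, and at 7 in HCC44 (35.0%), against 60.5%. It was kept in both ACBI1 samples at 1 of the 3, against 96.4%, and at 5 of the 7, against 94%. The HCC44 genes that did not keep it, HOXC4 and HOXC5, share the same window. Among the HCC44 samples that window lacked a peak only in ACBI1 replicate 2. Among these 20 genes both lines thus listed few promoters, H1975 the fewer. HOXB is represented there by HOXB1 alone and HOXC by HOXC4 and HOXC5, so the shares do not describe those clusters.

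Over the 26 HOX windows, the median was 22.5 CG dinucleotides, against 14 in the 34943 windows of the whole table. The 11 HOX windows with a peak in any sample had a median of 15, and the 15 windows without one a median of 24. The TATA box letters TATAAA, searched on both strands, were in 5 of 26 HOX windows (19.2%) and in 11.6% of all windows. The letters TGATNNAT, bound by HOX proteins together with their PBX partners, were in 3 of 26 (11.5%) and in 7.42% of all windows. The letters TGANTCA, bound by AP-1, were in 0 of 26 and in 7.72% of all windows. A window may hold both, and a match is a description of the sequence only.

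HCC44 had far more of its HOX windows under peaks than H1975, and HOXA was the most covered cluster in both lines. The 4 windows together held 20 and 22 peaks in the H1975 DMSO samples, 21 and 15 in the H1975 ACBI1 samples, 58 and 52 in the HCC44 DMSO samples and 39 and 37 in the HCC44 ACBI1 samples. All 4 HCC44 samples thus held more HOX peaks than any H1975 sample. The peaks covered 11.4 and 12.1 kb in H1975 with DMSO, 12.8 and 7.61 kb in H1975 with ACBI1, 58.5 and 57.0 kb in HCC44 with DMSO and 41.1 and 35.8 kb in HCC44 with ACBI1.

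**Figure D1:**
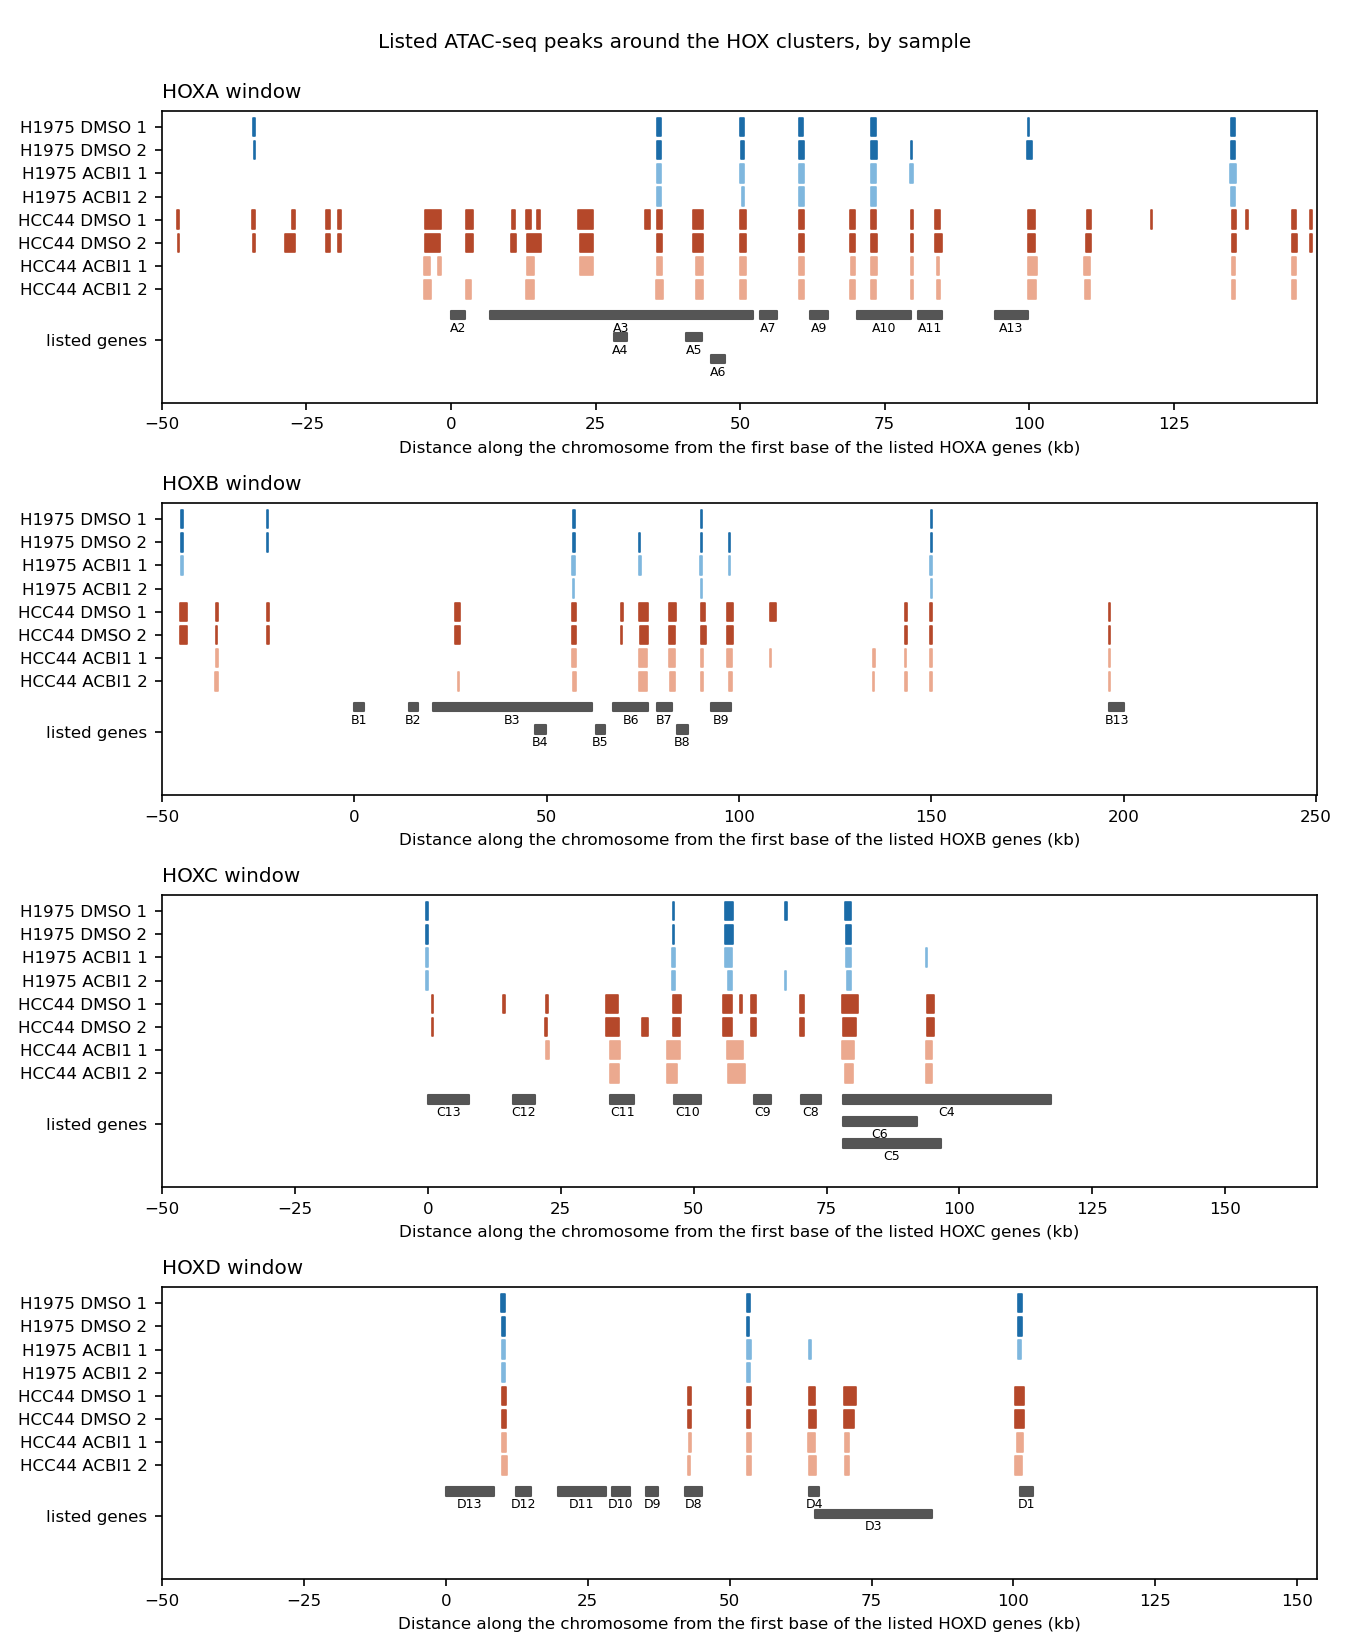
Listed peaks in the 4 HOX windows. Each panel is 1 window, the x axis gives the distance in kb along the chromosome from the first base of the listed genes, each row is 1 sample, coloured bars are peaks drawn to scale with a thin outline, and grey bars are the listed genes, named without the letters HOX. HCC44 rows hold 37 to 58 peaks over the 4 panels and H1975 rows 15 to 22.

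In the HOXA window the covered share was 2.16% and 2.60% in H1975 with DMSO, 2.28% and 1.70% in H1975 with ACBI1, 11.9% and 12.2% in HCC44 with DMSO and 7.55% and 6.82% in HCC44 with ACBI1. In the HOXB window it was 0.675% and 0.795%, 0.814% and 0.319%, 5.00% and 4.44%, and 3.22% and 2.70% in the same order. The lines did not overlap in either window. The HOXC window was covered to 1.52% and 1.30%, 1.68% and 1.02%, 6.03% and 5.94%, and 5.29% and 4.27%. The HOXD window was covered to 0.863% and 0.826%, 1.07% and 0.507%, 3.30% and 3.17%, and 2.39% and 2.36%. Again every HCC44 sample lay above every H1975 sample, and in HCC44 both ACBI1 samples lay below both DMSO samples in each of the 4 windows. In H1975 the treatments overlapped in all 4 windows.

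In HCC44 with DMSO the order of the windows, flanks included, was HOXA at 12.01% ± 0.216, HOXC at 5.99% ± 0.0661, HOXB at 4.72% ± 0.393 and HOXD at 3.23% ± 0.0921 (SD, n = 2 each). Each step in that order was larger than the SDs. The last step depended on the flanks. Inside the clusters alone HOXD stood at 6.36% ± 0.181 and HOXB at 5.64% ± 0.568 (SD, n = 2 each). In H1975 with DMSO HOXA was at 2.38% ± 0.309, HOXC at 1.41% ± 0.157, HOXD at 0.844% ± 0.0261 and HOXB at 0.735% ± 0.0846 (SD, n = 2 each). HOXD and HOXB there differed by less than their summed SDs.

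**Figure D2:**
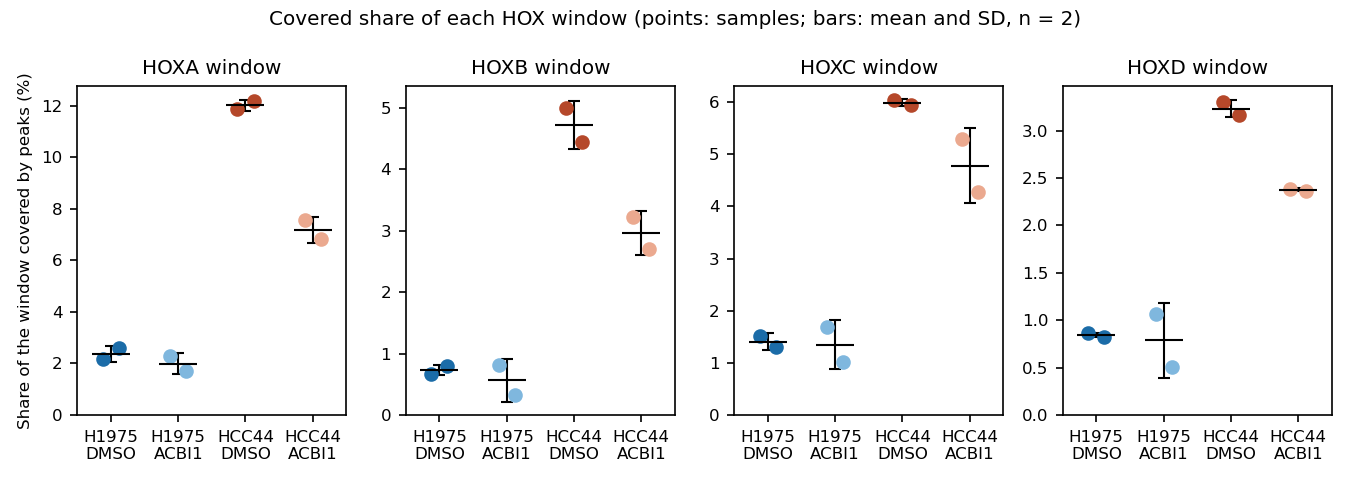
Share of each HOX window covered by peaks (y axis, percent, with its own scale from 0 in each panel) by line and treatment. Points are samples, and bars give the mean and SD of 2 replicates. All HCC44 points lie above all H1975 points, and in HCC44 the ACBI1 points lie below the DMSO points in each panel.

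Line differences were taken at each treatment and averaged. HCC44 exceeded H1975 by 7.41 percentage points in HOXA (9.63 with DMSO and 5.20 with ACBI1), against an SD between replicates of 0.378. The difference was 3.19 points in HOXB (SD 0.323), 4.003 in HOXC (SD 0.437) and 1.99 in HOXD (SD 0.204). Each had p = 0.0556 and adjusted p = 0.0556 over the 4 clusters by a two-sided exact permutation of line labels within each treatment. That is the smallest p that the 36 arrangements allow, so no test here can pass 0.05. With peaks limited to a fold enrichment of at least 5 the order of the lines turned in HOXA, to −1.08 points, and in HOXC, to −0.994, while HOXB kept 0.474 and HOXD 0.590. Requiring a −log10 q of at least 20 left HOXC at 1.89 (exact permutation p = 0.167).

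The HOX peaks of HCC44 were wide and of low fold enrichment for their list. Fold enrichment is the authors' own value for each peak over background and was ranked only within a list. The median HOX peak lay at the 17.7th and 23.5th percentile of fold enrichment in the HCC44 DMSO lists and at the 25.4th and 27.8th in the HCC44 ACBI1 lists. In H1975 the medians were at the 59.4th and 49.1st percentile with DMSO and at the 43.0th and 41.9th with ACBI1. Median HOX peak widths were 811.5 and 946.5 bp in HCC44 with DMSO, where the lists had 634 and 671 bp, and 539.5 and 523 bp in H1975 with DMSO, where the lists had 551 and 510 bp. Ranked by −log10 q, the median HOX peak stood between the 37.6th and the 47.8th percentile in all 8 lists.

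With all listed peaks, HOX windows made up a larger share of the covered length of the lists in HCC44. Of each list's covered length (14.9 to 41.3 Mb), the HOX share was 0.0374% and 0.0448% in H1975 with DMSO and 0.0582% and 0.0513% in H1975 with ACBI1. It was 0.146% and 0.138% in HCC44 with DMSO and 0.194% and 0.173% in HCC44 with ACBI1. The lines did not overlap, and within each line both ACBI1 samples lay above both DMSO samples. On the log2 scale HCC44 exceeded H1975 by 1.77 (SD between replicates 0.13, exact permutation p = 0.0556). At a fold enrichment of at least 5 this difference was 0.08 (exact permutation p = 0.722).

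Merging peaks of all 8 samples wherever they shared at least 1 bp gave 60 HOX regions. Of these, 13 had a peak in every sample (21.7%), against 21.8% of all 69131 merged regions. A group of 14 regions had a peak in all 4 HCC44 samples and in no H1975 sample, and 10 others only in both HCC44 DMSO samples. A single region had peaks in all 4 H1975 samples and in no HCC44 sample, at the 5′ end of HOXC13.

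With DMSO, 30 of the 51 HOX regions with a peak in both HCC44 samples had none in either H1975 sample (58.8%), against 29.2% of such regions in the whole lists. In the reverse direction it was 1 of 19, against 18% over the whole lists. With ACBI1 it was 16 of 35 HCC44 regions (45.7%), against 17.9%, and 1 of 14 in reverse, against 18%. The HCC44-only share of the HOX regions thus lay above that of the whole lists in both treatments, and the reverse share below it.

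Most HOX regions shared by all 8 samples were also longer in HCC44. All 4 HCC44 lengths exceeded all 4 H1975 lengths in 8 of the 13 (61.5%), against 14.3% of all regions held in 8 samples, and the reverse held in 0 of 13, against 5.1%. The median ratio of HCC44 to H1975 length was 1.58 for the HOX regions and 1.05 for all.

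**Figure D3:**
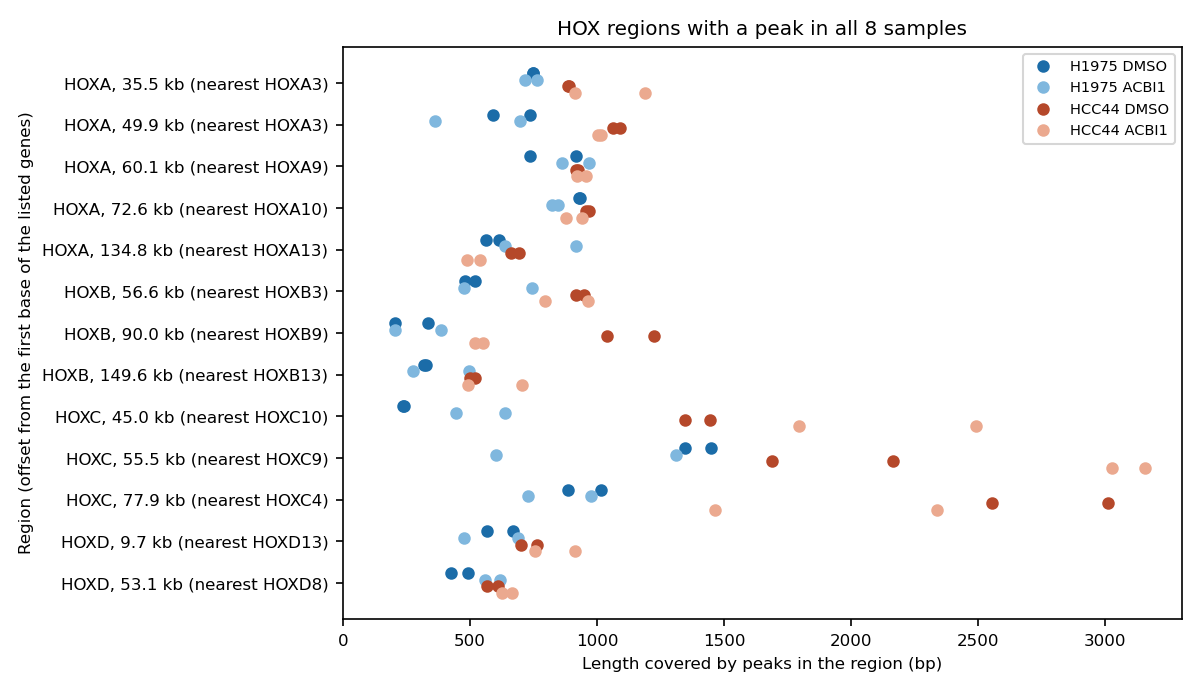
Length covered by peaks (x axis, bp) in the 13 HOX regions with a peak in all 8 samples. Each point is 1 sample coloured by line and treatment, and rows are labelled with the cluster, the distance from the first base of its listed genes and the nearest listed gene. In 8 rows all HCC44 points lie to the right of all H1975 points, furthest in the HOXC rows.

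With ACBI1 the number of peaks differed by less in the HOX windows than in the lists as a whole. On the log2 scale the number of HOX peaks differed by −0.39 (H1975 −0.24, HCC44 −0.53), with an SD between replicates of 0.19 and an exact permutation p of 0.111. The number in the whole lists differed by −0.87 (H1975 −0.77, HCC44 −0.97, exact permutation p = 0.0556). The HOX share of covered length was accordingly higher with ACBI1, by 0.39 on the log2 scale (H1975 0.42, HCC44 0.37, SD 0.13, exact permutation p = 0.0556). It was 0.16 with a fold enrichment of at least 5, 0.25 with a −log10 q of at least 20 and 0.63 with 22133 peaks per list. The log2 difference in HOX peak number was −0.16 inside the clusters alone and −0.88 with a fold enrichment of at least 5.

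The covered share of the HOXA window differed by −2.61 percentage points with ACBI1 (H1975 −0.391, HCC44 −4.83), against an SD of 0.378 and an exact permutation p of 0.111, adjusted p = 0.167. HOXB differed by −0.963 (H1975 −0.169, HCC44 −1.76), HOXC by −0.631 (H1975 −0.0550, HCC44 −1.21) and HOXD by −0.457 (H1975 −0.0565, HCC44 −0.858), each with p and adjusted p = 0.167 by the exact permutation test. HCC44 thus carried most of each difference, and the difference between the lines' responses was not tested. The direction turned in all 4 windows when every list was limited to its 22133 peaks of highest −log10 q. The differences were then 1.09 points in HOXA, 0.263 in HOXB, 0.933 in HOXC and 0.261 in HOXD, and the log2 number of HOX peaks differed by 0.77. With a fold enrichment of at least 5 the differences were −0.417 in HOXA, −0.479 in HOXB, −0.413 in HOXC and −0.845 in HOXD, and with a −log10 q of at least 20 HOXC was at −1.14. Without HCC44 ACBI1 replicate 2, HOXC was at −0.376.

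By region, a loss was a peak in both DMSO samples of a line and in neither ACBI1 sample. H1975 lost 3 of 19 HOX regions, against 37.2% of its regions in the whole lists. HCC44 lost 13 of 51 (25.5%), against 49.2%. H1975 kept 14 of 19 in all 4 samples, against 52%, and HCC44 34 of 51 (66.7%), against 44.6%. With all listed peaks, the lost share of the HOX regions lay below the share over the whole list in each line. H1975 gained 0, against 1.35% of all its merged regions, and HCC44 gained 1, against 2.28%. Without H1975 ACBI1 replicate 1 the H1975 losses were 5, and without H1975 ACBI1 replicate 2 its gains were 2. With equal numbers of peaks per list HCC44 lost 2 regions and gained 14. At a fold enrichment of at least 5, HCC44 lost 7 regions and kept 4, while H1975 lost 3 and kept 11. Losses in HCC44 thus outnumbered kept regions at that setting, and no whole-list share was taken there.

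Lost regions were then counted by place, with no test. In HCC44, 8 of 13 flanking regions were lost and 5 of 38 regions inside the clusters. In H1975, 2 of 4 flanking regions were lost and 1 of 15 inside. A gene boundary was the span within 1 kb of an end of a protein-coding gene. Away from such boundaries HCC44 lost 63% of its regions in the whole lists but 2 of 19 inside the HOX clusters, and 8 of 12 in the HOX flanks. H1975 lost 50.2% of such regions in the whole lists, 0 of 9 inside the clusters and 2 of 4 in the flanks. At gene boundaries the shares stood the other way: HCC44 lost 8.73% in the whole lists and 3 of 19 inside the clusters, and H1975 lost 4.23% and 1 of 6. The HOX regions that went missing away from gene boundaries thus lay mainly outside the clusters, while those inside were mostly kept. All flanking regions lay in the HOXA and HOXB windows, and most of those lost in HCC44 in HOXA. The HOXC and HOXD flanks held none, so the contrast does not describe those clusters. A region at the HOXC13 end counted as inside HOXC, although its peaks in the H1975 DMSO samples lay just before the listed genes.

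Kept HOX regions were also compared by length. In H1975, 2 of 14 were shorter in each ACBI1 sample than in either DMSO sample, against 45.3% of all kept regions, and 3 were longer, against 7.48%. In HCC44, 16 of 34 were shorter, against 58.1%, and 6 longer, against 12.9%. The remaining kept regions overlapped in length between the treatments.

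Boundary peaks were listed at 7 of the 38 genes in both H1975 DMSO samples (18.4%), against 59.4% of protein-coding genes, and at 22 in both HCC44 DMSO samples (57.9%), against 60.9%. Of these, 5 of 7 kept the peak in both ACBI1 samples in H1975, against 95.2%, and 18 of 22 in HCC44, against 91.9%. With a fold enrichment of at least 5, HCC44 had 5 such genes with DMSO and 0 kept the peak. HOXC4, HOXC5, HOXC6 and HOXC10 had a boundary peak in all 8 samples, 4 of 38 against 52.7% of protein-coding genes. At 15 genes there was none in any sample, against 33%: HOXA3, HOXA4, HOXA6, HOXA7, HOXB1 to HOXB5, HOXC12 and HOXD9 to HOXD13. HOXA3 is counted there because its annotated span ends beyond the start whose promoter window held a peak in all samples. HOXC4, HOXC5 and HOXC6 share a region, which counts once for each gene in the 7 and 5 of H1975 and in the 22 and 18 of HCC44.

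With DMSO, 12 genes had a boundary peak in both HCC44 samples and in neither H1975 sample (31.6%), against 3.84% of protein-coding genes, and none had the reverse pattern, against 2.74%. They were HOXA2, HOXA5, HOXB6, HOXB7, HOXB8, HOXB13, HOXC8, HOXC9, HOXC11, HOXD3, HOXD4 and HOXD8. With ACBI1 there were 8, against 2.26%: HOXA5, HOXA13, HOXB6, HOXB7, HOXB8, HOXB13, HOXC11 and HOXD8. A region shared by genes was counted once for each gene: HOXB7 and HOXB8 at both treatments, and HOXD3 and HOXD4 with DMSO. HOXC13 alone had the reverse pattern with ACBI1, against 2.98%.

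**Figure D4:**
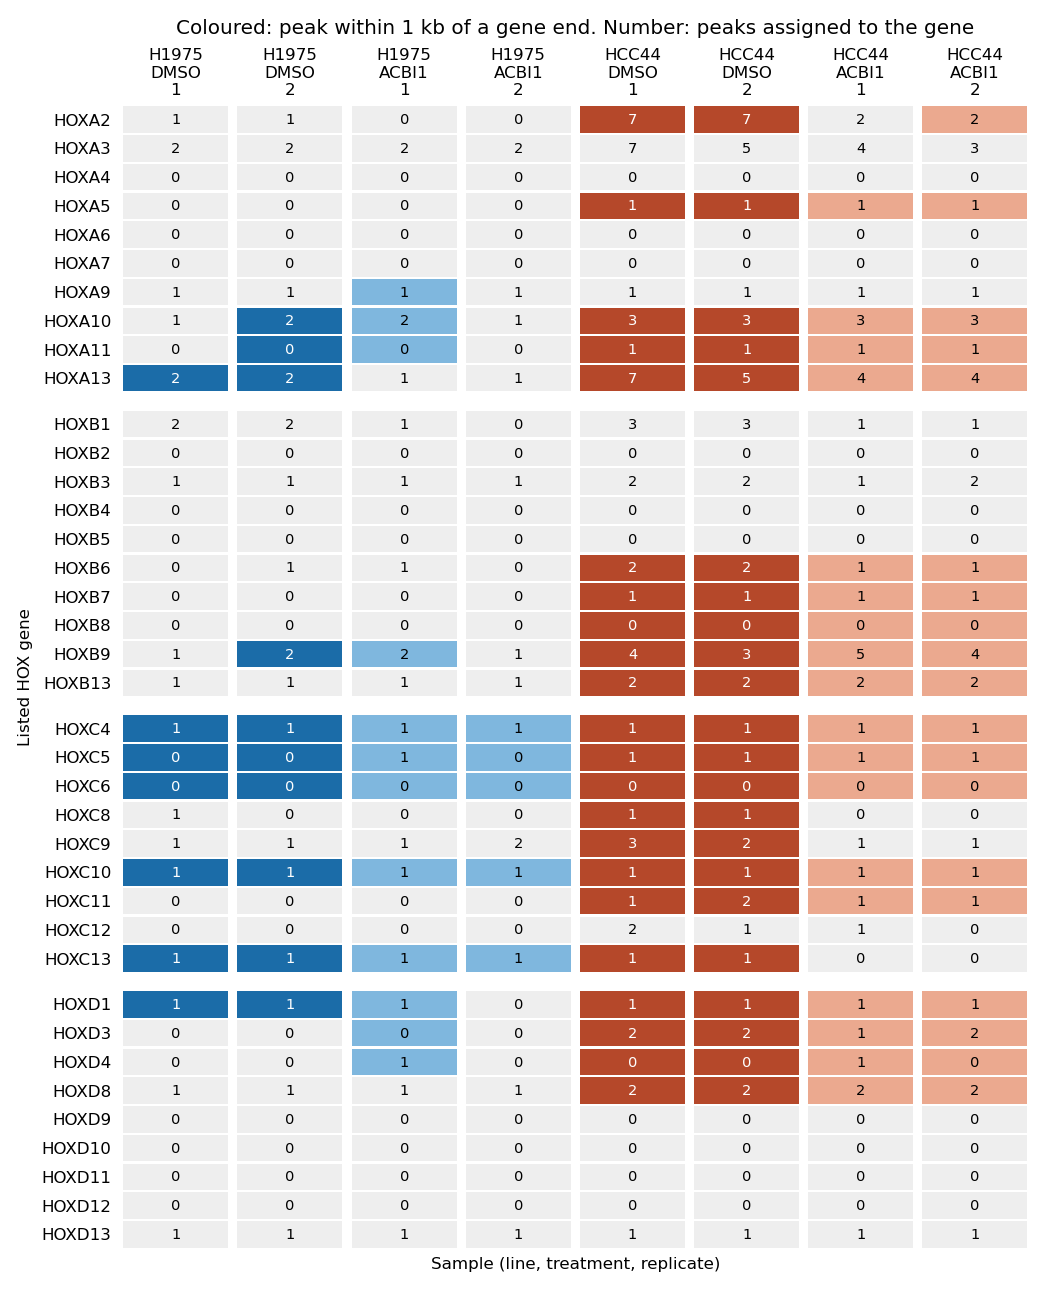
The 38 listed HOX genes (rows) in the 8 samples (columns). A coloured cell marks a peak within 1 kb of either gene end, and the number is the count of peaks assigned to the gene as its nearest. HOXC4, HOXC5, HOXC6 and HOXC10 are coloured in all 8 columns, and HOXD9 to HOXD12 have 0 in all.

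Grouped by paralogue number, the 11 genes of groups 1 to 4, which act towards the head, drew 8 and 8 assigned peaks in H1975 with DMSO, 7 and 4 in H1975 with ACBI1, 23 and 21 in HCC44 with DMSO and 12 and 12 in HCC44 with ACBI1. The 11 genes of groups 5 to 8, which act in the neck and thorax, drew 2 and 2, 3 and 1, 8 and 8, and 6 and 6 in the same order. The 16 genes of groups 9 to 13, which act towards the tail and the limb ends, drew 10 and 12, 11 and 10, 27 and 23, and 21 and 19. In every group each HCC44 sample had more than any H1975 sample with the same treatment. Within HCC44 the head-side group had the larger difference between treatments, and this contrast was not tested. Much of it came from HOXA2 and HOXB1, end genes that were also assigned the peaks of the adjoining flanks. Under ACBI1 the HCC44 count of HOXA2 fell from 7 to 2 in both replicates, and that of HOXB1 from 3 to 1. All HOXB1 peaks and most HOXA2 peaks lay in a flank. HOXA3, inside the cluster, also fell, from 7 and 5 to 4 and 3. By midpoint the 3 groups drew 4, 5 and 11 peaks in the first H1975 DMSO sample and 20, 11 and 27 in the first HCC44 DMSO sample. The counts of groups 1 to 4 and of groups 5 to 8 thus depend on the assignment in both lines.

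In HOXA the genes nearest to most peaks were HOXA3 and HOXA13, with 27 and 26 over the 8 samples. The rank of HOXA3 rests on its long annotated span: by the nearest gene midpoint it drew 1 peak, HOXA13 kept 26 and HOXA2 drew 27 in place of 20. HOXA3, needed for the thymus and parathyroid, was nearest to 2 peaks in each H1975 sample and to 7, 5, 4 and 3 peaks in the HCC44 samples (DMSO, then ACBI1). The region chr7:27135844-27137031, inside its annotated span, was the widest HOXA region held in all samples. It measured 749, 748, 764 and 718 bp in H1975 (DMSO, then ACBI1) and 890, 887, 912 and 1188 bp in HCC44. All HCC44 values lay above all H1975 values, by a small margin. The region chr7:27150270-27151361 held the printed HOXA3 promoter window, with 737, 589, 696 and 361 bp in H1975 against 1064, 1092, 1016 and 1002 bp in HCC44. It narrowed in 1 H1975 ACBI1 sample and hardly moved in HCC44.

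HOXA13, which patterns the limb ends and the hindgut, was nearest to 2, 2, 1 and 1 peaks in H1975 and to 7, 5, 4 and 4 in HCC44. Its start region chr7:27200003-27201680 overlaps the printed HOXA13 promoter and HOTTIP, an lncRNA that recruits MLL complexes to HOXA genes. It held 268 and 809 bp in the H1975 DMSO samples and no peak in either H1975 ACBI1 sample. In HCC44 it held 1141 and 1147 bp (DMSO), then 1462 and 1296 bp (ACBI1). The peak was thus lost in H1975 and longer in both ACBI1 samples of HCC44. It was the only HOX gene whose boundary peak was lost in both H1975 ACBI1 samples.

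HOXA5, a regulator of lung development, had a boundary peak only in HCC44, and by distance was nearest to a peak only there. Assigned by midpoint, HOXA5 drew 1 peak per H1975 list and 2 per HCC44 list. The boundary region of HOXA5, chr7:27142164-27143967, measured 1799 and 1677 bp (DMSO), then 1256 and 1189 bp (ACBI1) in HCC44. It was thus present in all 4 HCC44 samples and shorter in both ACBI1 samples. HOXA2, a hindbrain and pharyngeal arch gene, was nearest to 1, 1, 0 and 0 peaks in H1975 and to 7, 7, 2 and 2 in HCC44. Its boundary region chr7:27102933-27104087 held 1155 and 1057 bp (DMSO), then 0 and 826 bp (ACBI1) in HCC44.

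Most other HOXA2 peaks lay before the cluster. The region chr7:27065906-27066470, 33884 bp from HOXA2, was lost in both lines: it held 340 and 248 bp in H1975 with DMSO, 565 and 386 bp in HCC44 with DMSO, and nothing in the 4 ACBI1 samples. Another 4 HCC44 regions on the same side were lost as well, among them chr7:27053034-27053362 with 329 and 300 bp.

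HOXA9 and HOXA10, which act in blood progenitors and, for HOXA10, in the uterus, had peaks in both lines. The region next to HOXA9, chr7:27160455-27161445, measured 736, 916, 969 and 863 bp in H1975 against 918, 925, 922 and 958 bp in HCC44. The region chr7:27172966-27173961 inside HOXA10 measured 929, 931, 847 and 822 bp in H1975 against 955, 968, 941 and 877 bp in HCC44. The lines overlapped in both regions, unlike in the HOXA3 and HOXA5 regions. HOXA11, a gene of the forearm, kidney and uterus, had a start region of 991, 1184, 358 and 406 bp in HCC44 and no peak there in H1975.

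In HOXB the genes with most peaks were HOXB9 and HOXB1. HOXB9, active in the thoracic skeleton, was nearest to 1, 2, 2 and 1 peaks in H1975 and to 4, 3, 5 and 4 in HCC44. Its own region chr17:48625327-48626950 held 0, 258, 219 and 0 bp in H1975 against 1550, 1538, 1470 and 772 bp in HCC44. The widest HOXB region held in all samples, chr17:48618491-48619882, lies 1274 bp from HOXB9 and measured 333, 205, 385 and 205 bp in H1975 against 1038, 1225, 521 and 549 bp in HCC44. It was shorter with ACBI1 in both HCC44 samples and overlapped between treatments in H1975.

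HOXB1, a hindbrain gene, was nearest to 2, 2, 1 and 0 peaks in H1975 and to 3, 3, 1 and 1 in HCC44, all of them in the flank beyond the gene. Of these, chr17:48505839-48506445 was lost in both lines, with 258 and 210 bp in H1975 with DMSO and 601 and 558 bp in HCC44 with DMSO. The region chr17:48483161-48485080 held 601, 621, 322 and 0 bp in H1975 against 1917, 1919, 0 and 0 bp in HCC44, so it was lost in HCC44 only. HOXB2, HOXB4 and HOXB5 were the nearest gene to no peak, although by midpoint HOXB5 drew 8 and HOXB2 3 over the 8 samples.

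The middle of HOXB separated the lines. The HOXB6 region chr17:48602484-48604997 held 0, 287, 282 and 0 bp in H1975 against 2276, 2317, 2067 and 2005 bp in HCC44. The region chr17:48610324-48612063, at the facing ends of HOXB7 and HOXB8, held no peak in H1975 and 1704, 1500, 1581 and 1365 bp in HCC44. HOXB6 to HOXB8 act in the trunk, and their HCC44 peaks were present in all 4 samples. HOXB13, a prostate and tail-end gene, had a region of 423, 488, 468 and 331 bp in HCC44, chr17:48724619-48725118, and none in H1975.

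A second HOXB6 region, chr17:48597849-48598323, was lost in HCC44 (475 and 366 bp with DMSO). The only HOX region gained in HCC44 was chr17:48663255-48663872, inside the lncRNA LINC02086, with 618 and 477 bp with ACBI1.

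In HOXC, a peak lay within 1 kb of the shared start of HOXC4, HOXC5 and HOXC6 and within 1 kb of an end of HOXC10 in every sample. The printed promoter window at the shared start itself held a peak in 3 HCC44 samples and in no H1975 sample. Because the 3 genes share a start, 1 region serves all of them and assigned counts cannot separate them. That region, chr12:54016733-54019741, measured 1017, 884, 977 and 727 bp in H1975 against 3009, 2555, 2336 and 1464 bp in HCC44. HOXC10, which acts in lumbar motor neurons, was nearest to 1 peak in every sample, at chr12:53983796-53986388, with 237, 241, 637 and 444 bp in H1975 against 1443, 1345, 2489 and 1795 bp in HCC44. The HOXC10 region was longer with ACBI1 in both lines, and the HOXC4 region shorter with ACBI1 in HCC44. In HCC44 the HOXC10 region ranked very low in fold enrichment, at percentiles 1.61, 0.723, 1.47 and 0.700.

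HOXC9, a thoracic gene, was nearest to 1, 1, 1 and 2 peaks in H1975 and to 3, 2, 1 and 1 in HCC44. Its boundary region chr12:53999645-54000614 held 966 and 970 bp in HCC44 with DMSO and nothing elsewhere. The widest HOXC region held in all samples, chr12:53994349-53998467 in HOXC-AS2, lies 1694 bp from HOXC9. It measured 1450, 1344, 1310 and 603 bp in H1975 against 2165, 1690, 3027 and 3154 bp in HCC44. In HCC44 the boundary peak was thus lost while the neighbouring region was longer in both ACBI1 samples. Both regions ranked very low in fold enrichment there. The neighbouring region lay at percentiles 0.499, 0.284, 0.676 and 0.692, and the boundary region at 2.18 and 2.59 with DMSO. In the first HCC44 DMSO sample the neighbouring region was listed as separate peaks of 1761 and 404 bp.

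HOXC8, also thoracic, lost its HCC44 boundary region chr12:54008911-54009516 (577 and 606 bp with DMSO). HOXC13, a hair follicle gene, had chr12:53938431-53938850 in H1975 alone, with 295, 346, 420 and 285 bp. In HCC44 it had another region, chr12:53939537-53939902, with 366 and 306 bp with DMSO and none with ACBI1. HOXC8, HOXC9 and HOXC13 were the 3 HOX genes whose boundary peak was lost in both HCC44 ACBI1 samples. HOXC11, whose region chr12:53972406-53974924 also overlaps the lncRNA HOTAIR, held 2239, 2334, 1838 and 1642 bp in HCC44 and no peak in H1975. HOTAIR guides Polycomb to HOXD.

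In HOXD the genes with most peaks were HOXD8 and HOXD13, with 12 and 8 over the 8 samples, and no HOXD region was lost in HCC44. By midpoint HOXD8 kept 12, HOXD13 drew 0 and its 8 peaks went to HOXD12. HOXD8 was nearest to 1 peak in each H1975 sample and to 2 in each HCC44 sample. Its own boundary region chr2:176130161-176130740 was in HCC44 alone, with 577, 562, 373 and 310 bp. The region chr2:176140538-176141202, 7843 bp from HOXD8, measured 491, 424, 619 and 557 bp in H1975 against 610, 568, 665 and 625 bp in HCC44. It was longer with ACBI1 in both lines.

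HOXD13, a gene of the digits, drew 1 peak in each sample and had no boundary peak in any. The peak, in chr2:176097221-176098264, lies 1277 bp from the gene and is the widest HOXD region held in all samples. It measured 669, 565, 687 and 475 bp in H1975 against 701, 762, 755 and 913 bp in HCC44. HOXD9 to HOXD11 drew no peak by either assignment.

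HOXD4 and HOXD3, hindbrain and neck genes, shared the region chr2:176151291-176152623, with 0, 0, 285 and 0 bp in H1975 against 1043, 1118, 1270 and 1110 bp in HCC44. A second HOXD3 region, chr2:176157546-176159809, was in HCC44 alone, with 2223, 1881, 681 and 603 bp. The first was about as long with ACBI1 as with DMSO and the second much shorter. HOXD1, which marks sensory neurons in the mouse, held 595, 691, 582 and 0 bp in H1975 against 1553, 1551, 1108 and 1245 bp in HCC44 at chr2:176187712-176189275, which overlaps the printed HOXD1 promoter.

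MicroRNA genes lie among the HOX genes. Mature sequences of the miR-196b and miR-615 arms are printed because peaks at their genes within 1 kb were listed in HCC44 alone. The seed, bases 2 to 8, is in capitals.
hsa-miR-196b-5p: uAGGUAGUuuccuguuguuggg
hsa-miR-615-3p: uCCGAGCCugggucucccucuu
MIR196B, between HOXA9 and HOXA10, encodes a microRNA known to target HOX mRNAs. Its gene overlapped a peak in all 4 HCC44 samples, with 846, 795, 582 and 881 bp, and the nearest H1975 peak was 3442 to 3514 bp away. MIR615, inside HOXC5, lay within 1 kb of a peak in all 4 HCC44 samples and in no H1975 sample, where the nearest peak of the first ACBI1 sample was 1163 bp away. MIR3185, next to HOXB13, had the same pattern as MIR615, and MIR7704 at HOXD1 had a peak within 1 kb in 7 samples. MIR10B next to HOXD4 had one in 1 HCC44 ACBI1 sample, 879 bp away. The nearest peak was 1107, 1094 and 1102 bp from MIR10B in the other HCC44 samples and 1112 bp away in H1975 ACBI1 replicate 1. MIR10A, MIR196A1 and MIR196A2 had no peak within 1 kb in any sample.

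Partners and regulators of HOX genes mostly had peaks in every sample. Of 9 cofactor genes of the PBX, MEIS and PKNOX families, which bind DNA together with HOX proteins, 6 had a boundary peak in all 8 samples, PBX2 and MEIS3 had none, and PKNOX2 lost its peak in HCC44. Of 29 Polycomb, Trithorax and related genes, 26 had one in all 8 samples, and RING1 and PCGF2 had none. CBX2 lacked a peak only in H1975 ACBI1 replicate 2 and HCC44 ACBI1 replicate 1. The shares with a peak in all 8 samples compare with 52.7% of protein-coding genes. Of 10 homeobox genes of the ParaHox, EVX and MEOX groups, 8 had no boundary peak in any sample, against 33% of protein-coding genes. Some of these 10 genes act upstream of HOX genes. CDX2, which activates HOX genes in the posterior embryo, had one in all 4 HCC44 samples and in no H1975 sample, and GSX2 in both HCC44 DMSO samples only.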

How the data were processed

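ATAC-seq was measured in 8 samples, 2 for each line and treatment, and the authors deposited 1 peak list per sample. Reads were aligned to hg38 with BWA, per the submitters' processing notes. The peak caller and its filters are not given in the sources used here. The lists have 9 columns. Per the layout, the deposited fold enrichment is the authors' ratio over background, p-value and q-value are deposited as −log10 values, and the deposited score was not used. Peak listing depends on read depth, which is unknown, so fold enrichment and −log10 q served only to rank or filter within a list. The labels name no batch.

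Gene positions, promoter windows and microRNA sequences were from RefSeq tables of GRCh38.p14. No genome sequence was used, so letters under peaks were not analysed here. Peaks were assigned by distance from the peak to the gene. Merging required 1 bp of overlap. Covered shares were compared by exact permutation tests over samples (36 arrangements, smallest p 0.0556), adjusted over the 4 clusters by the Benjamini-Hochberg method. Counts of regions and genes were set beside the whole lists without a test. The functions were tested on simulated data.

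The members and gene lists were chosen with earlier results of these data known. Genes given in full were, per cluster, the 2 with most assigned peaks and those with a boundary peak in both replicates of 1 group and neither of another. Regions given in full were the widest in all samples per cluster, up to 2 lost and 2 gained per line and cluster by rank of fold enrichment, and those at the ends of these genes. Other regions named were chosen after their values were seen. Alternatives were a −log10 q of at least 20, a fold enrichment of at least 5, 22133 top peaks per list, joining at 1200 bp, flanks of 20 kb or none, boundaries of 5 kb or RefSeq promoters, regions at least 50% covered, assignment by midpoint, blocking by replicate number and leaving out 1 sample at a time. Python 3.11.15, numpy 2.4.6, pandas 2.3.3 and matplotlib 3.10.9 were used.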

Additional observations from a re-analysis of the deposited data

How the results depend on the processing

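Leaving out 1 sample at a time kept every direction of the covered shares. HOX regions lost in H1975 then ranged from 3 to 5 and those gained in H1975 from 0 to 2. Limiting each list to its 22133 peaks of highest −log10 q reversed the ACBI1 difference in covered share, to 1.09 points (HOXA), 0.263 (HOXB), 0.933 (HOXC) and 0.261 (HOXD), and in log2 peak number, to 0.77. It also gave 1 lost, 4 gained and 7 retained regions in H1975, 2 lost, 14 gained and 14 retained in HCC44, and boundary peaks in both DMSO samples at 4 genes in H1975 and at 8 in HCC44, of which 7 were kept. A fold enrichment of at least 5 reversed the line difference in HOXA (−1.08) and HOXC (−0.994), and gave 7 lost and 4 retained regions in HCC44 and 5 genes with boundary peaks, of which 0 kept them. A −log10 q of at least 20 gave 8 lost and 18 retained regions and 10 kept boundary peaks in HCC44. Flanks of 20 kb gave 1 lost region in H1975 and 6 in HCC44, and the clusters alone 1 and 5. Requiring at least 50% of a region to be covered gave 1 gained region in H1975. Boundaries of 5 kb gave 20 genes in H1975, 18 of them kept, and 28 kept in HCC44. RefSeq promoters gave 3 genes and 1 kept in H1975, and 7 and 5 in HCC44, with fewer genes tested. Assignment by midpoint left the counts of 17 of 38 genes unchanged and moved 66 of 264 peaks. The cause of the other changes was not tested.

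Replicate numbers did not pair the samples: deviations of same-numbered samples correlated at 0.0783 in H1975 and 0.0289 in HCC44. With a replicate block the differences were the same, for example −2.61 points for ACBI1 in HOXA, with a smallest possible p of 0.125 by the exact permutation test. Neither fit can pass 0.05, so there was no call that the block could change. Under settings other than leaving out a replicate, 7 values reversed and 29 counts moved by more than 1.5 times. The other 108 kept their direction or lay within 1.5 times, but not always their size: at a fold enrichment of at least 5 the log2 line difference in HOX share was 0.08 in place of 1.77, and that in HOXB cover 0.474 in place of 3.19.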

Other observations

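Long stretches of the HOX windows held no peak in any of the 8 lists. In HOXD, 59.7 kb before and over HOXD13 (chr2:176037487-176097220) and 31.9 kb over HOXD9 to HOXD12 (chr2:176098265-176130160) were without one. In HOXB, 48.2 kb over HOXB1 and HOXB2 (chr17:48506446-48554645) and 29.2 kb over HOXB4 (chr17:48555923-48585116) were without one. The longest such stretch, 71.9 kb (chr12:54034126-54106030), began inside HOXC4 and reached the end of the HOXC window. Their lengths describe the lists only.

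The genes that adjoin the clusters were counted as well. Of 12 neighbours, 8 had a boundary peak in all 8 samples, against 52.7% of protein-coding genes. SKAP1, PRAC1 and ATP5MC2 had none in any, against 33%. The lung lineage gene NKX2-1 had a boundary peak in all 4 H1975 samples and in 1 HCC44 sample, and SFTPB, a surfactant gene, in both HCC44 DMSO samples alone, while SFTPC and NAPSA had one in all 8 samples.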
